A study of Mus musculus with 8 samples.

Results

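The genes described here are 7 autosomal retrogenes that stand in for X-linked housekeeping genes in the male germ line: *Pgk2*, *Pdha2*, *Rpl10l*, *Cstf2t*, *Rbmxl2*, *Utp14b* and *Cetn1*. They were taken from a fixed list, out of 20807 autosomal protein-coding genes, and every accessible region within the gene or within 1000 bp on either side was collected in 2 lists of ATAC-seq peaks. All 7 genes carried exactly 1 peak in the wild-type list and 1 in the mutant list, and at each gene the peaks of the lists overlapped. No peak was gained or lost. Over all autosomal genes, 31.5% had exactly 1 overlapping peak in each list, and 57.5% had a peak in the wild-type list and 65.3% in the mutant list. A gained peak was found at 25.1% and a lost one at 2.42%, over genes of any length, where longer ones have more room for a peak. The mutant peak was higher and wider than the wild-type peak at all 7 genes, by a median factor of 1.61 in fold enrichment, against 1.54 over all autosomal promoter peaks.

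A retrogene arises when a messenger RNA is copied back into DNA and inserted elsewhere in the genome, so it usually lacks the introns and the promoter of its parent. During the pachytene stage of meiosis the X and Y chromosomes of male germ cells are silenced. Spermatocytes then depend on autosomal retrogenes for enzymes and ribosome or RNA-processing factors whose parent genes lie on the X chromosome. Accessibility to a transposase, which ATAC-seq measures, marks promoters and other DNA that is free of tightly packed nucleosomes, but it does not measure transcription.

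The study compared pachytene spermatocytes of *Arid1a* WT and *Arid1a* cKO mice, with 4 libraries each, to learn how chromatin accessibility responds to the loss of ARID1A, a subunit of the BAF chromatin remodeling complex. *Arid1a* cKO males carried 2 floxed *Arid1a* alleles and the *Stra8-Cre* transgene, which is active from spermatogonia on, while *Arid1a* WT males were *Arid1a* fl/fl or *Arid1a* fl/+ without Cre. The mice had a CD1 background, and cells were purified by sedimentation from the pooled testes of adult males. The study describes excision as incomplete, so cells that kept ARID1A are part of the cKO libraries, and the libraries were made from stored aliquots, which may be technical replicates.

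Each list came from all 4 libraries of a genotype. The WT list held 19309 peaks on 52419 rows, and the cKO list held 30244 peaks on 84006 rows. Peak names and heights come from a single reference library per genotype, and each row is the part of a reference peak that a peak of another library overlapped, so a peak on 3 rows can have been found in all 4 libraries. There are no heights per library, so the comparison of heights between genotypes has no replicate check and carries no p-value. Fold enrichment is the number of fragments over the summit of the peak over those expected from background (1 is added to both numbers), and does not depend on gene length. The background was 4.33 fragments (WT) and 5.11 fragments (cKO), and the depth of the other libraries is unknown. As a check of the labelled cell type, all 8 marker genes of meiotic spermatocytes had a promoter peak in both lists. Of all autosomal protein-coding genes, 51.1% (WT) and 57.6% (cKO) had one, so such a peak at a single marker does not identify a cell type. Promoter peaks at markers of other cells were found in the WT and cKO lists, respectively, for 0 and 2 of 5 spermatogonial, 2 and 3 of 5 spermatid, 2 and 2 of 4 Sertoli, 1 and 1 of 4 Leydig and 0 and 1 of 4 macrophage genes. The part of other cells in the results below was not tested, and in such bulk libraries a different share of cells and a different accessibility per cell cannot be told apart.

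The DNA in front of these genes is shown because a retrogene is usually inserted without the promoter of its parent, and the peaks lie on or next to it. The sequences are the 250 bases before the start annotated by RefSeq (build GRCm38.p6, the assembly of mm10), read 5′ to 3′ along the gene and ended before any annotated exon, for the 6 members that have an entry in the table. Capitals mark 4 motifs on either strand, namely CAGTT (the core of the motif of MYB factors), TATAAA (the TATA box), CCAAT (the CCAAT box) and GGGCGG (the GC box).
Pgk2: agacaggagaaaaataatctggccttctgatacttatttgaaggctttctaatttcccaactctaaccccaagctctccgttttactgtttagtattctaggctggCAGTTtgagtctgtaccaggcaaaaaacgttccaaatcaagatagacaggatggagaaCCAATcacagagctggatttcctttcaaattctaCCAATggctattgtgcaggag
Pdha2: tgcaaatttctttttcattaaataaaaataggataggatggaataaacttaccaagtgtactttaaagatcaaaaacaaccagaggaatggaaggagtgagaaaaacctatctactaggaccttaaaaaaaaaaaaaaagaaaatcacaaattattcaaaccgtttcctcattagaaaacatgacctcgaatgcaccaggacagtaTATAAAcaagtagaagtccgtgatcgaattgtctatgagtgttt
Rpl10l: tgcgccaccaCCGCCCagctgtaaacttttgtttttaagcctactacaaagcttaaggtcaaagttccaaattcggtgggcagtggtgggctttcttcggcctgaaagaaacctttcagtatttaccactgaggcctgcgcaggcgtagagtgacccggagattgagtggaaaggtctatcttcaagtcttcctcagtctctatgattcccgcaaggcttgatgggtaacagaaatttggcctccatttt
Cstf2t: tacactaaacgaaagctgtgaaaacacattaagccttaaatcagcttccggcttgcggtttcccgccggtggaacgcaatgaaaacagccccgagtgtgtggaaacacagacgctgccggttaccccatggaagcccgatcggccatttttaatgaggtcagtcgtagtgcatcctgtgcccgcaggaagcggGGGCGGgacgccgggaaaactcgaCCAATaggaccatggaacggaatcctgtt
Rbmxl2: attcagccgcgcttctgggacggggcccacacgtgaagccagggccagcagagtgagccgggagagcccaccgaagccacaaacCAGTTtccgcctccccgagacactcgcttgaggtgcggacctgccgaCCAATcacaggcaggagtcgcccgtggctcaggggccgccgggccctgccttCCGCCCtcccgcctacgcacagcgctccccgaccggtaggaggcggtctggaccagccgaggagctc
Utp14b: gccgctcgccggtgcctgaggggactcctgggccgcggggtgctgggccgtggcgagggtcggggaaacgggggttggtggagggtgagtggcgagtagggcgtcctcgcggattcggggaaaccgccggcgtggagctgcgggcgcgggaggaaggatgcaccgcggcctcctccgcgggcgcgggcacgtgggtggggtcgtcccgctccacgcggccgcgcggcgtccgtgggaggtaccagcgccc

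These stretches lie at chr17:40208641-40208859 (minus strand, *Pgk2*), chr3:141212356-141212605 (minus strand, *Pdha2*), chr12:66284402-66284651 (minus strand, *Rpl10l*), chr19:31082591-31082836 (plus strand, *Cstf2t*), chr7:107209195-107209444 (plus strand, *Rbmxl2*) and chr1:78658190-78658439 (plus strand, *Utp14b*). For *Utp14b*, RefSeq places the start at chr1:78658440, downstream of the first GENCODE start at chr1:78658038 from which its peak positions are counted, so its printed stretch lies inside the GENCODE gene body, outside the annotated exons. Base composition differed widely. The GC content of the full 250 bases ran from 31.6% at *Pdha2* to 77.2% at *Utp14b*, around a median of 51.2%, against 52.4% over 32851 promoters in the same table. CpG dinucleotides numbered 3 at *Pgk2*, 4 at *Pdha2*, 8 at *Rpl10l*, 19 at *Cstf2t*, 23 at *Rbmxl2* and 37 at *Utp14b*, and the median over all promoters was 6. By count, the windows of *Utp14b* (before its RefSeq start), *Rbmxl2* and *Cstf2t* were thus CpG-rich, and those of *Pgk2* and *Pdha2* were not. Over the number expected from C and G content, CpGs stood at 0.272 at *Pgk2* but 0.642 at *Pdha2*. The median of that ratio over all promoters was 0.373.

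No motif was present in all 6 promoters. CCAAT was found at *Pgk2*, *Cstf2t* and *Rbmxl2* and in 33.8% of all promoters, and GGGCGG at *Rpl10l*, *Cstf2t* and *Rbmxl2* and in 32.7%. CAGTT occurred at *Pgk2* and *Rbmxl2*, with a share of 39.1% of all promoters. The *Pdha2* promoter alone held TATAAA, which began 44 bases before the start, and 12.4% of all promoters hold it. The other strings searched on both strands are absent from these 6 windows: TGACGTCA, the full cAMP response element (1.55% of all promoters), TGACG, the shorter element that lies within it (17.8%), and GTTGCC, one arm of the X-box of RFX factors (10.4%). These matches describe letters, not bound sites.

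Because a retrogene copies the coding sequence of its parent, reads may be shared between them. Coding sequences were therefore compared. Identity ran from 68.1% of aligned bases for *Rbmxl2* and *Rbmx* to 84.7% for *Rpl10l* and *Rpl10*, and identity of the proteins from 68.1% for *Utp14b* and *Utp14a* to 98.6% for *Rpl10l* and *Rpl10*. *Rpl10l* thus encodes a protein nearly identical to that of its parent with a coding sequence that has diverged at many positions. The longest exact run of coding bases that a retrogene shares with its parent is shown for 4 single-exon members to let the extent of sharing be seen. It lies in the peak in both lists for *Pgk2*, *Pdha2* and *Cstf2t* and only in the cKO list for *Rpl10l*. The WT reference peak of *Rpl10l* was wider than its rows, so whether it holds the run is not known.
Pgk2: tggacaatggagccaagtccgt
Pdha2: caggaagcctgctgcgtggg
Rpl10l: ggccaggtcatcatgtccatccg
Cstf2t: tatggcttctgcgagtaccaagacca

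They lie at chr17:40208363-40208384, chr3:141211435-141211454, chr12:66283942-66283964 and chr19:31083240-31083265, on the strand of the gene. The longest run was 13 bases in *Rbmxl2*, 29 for *Cetn1* and 30 for *Utp14b*. All were shorter than the 50 bases of a read, and no 50-base window of any member peak occurred, on either strand, in the gene of its parent or the 1000 bp around it. The closest 50-base windows of retrogene and parent coding sequence differed at 2 bases in *Rpl10l*, 3 in *Pdha2* and *Utp14b*, 4 in *Cstf2t* and *Cetn1*, 5 in *Pgk2* and 9 in *Rbmxl2*. Windows within 3 mismatches of the parent made up 3.54% of the coding windows of *Rpl10l*, 1.18% of those of *Utp14b* and 0.979% of those of *Pdha2*, and none of those of the other 4. A read with mismatches can still be placed at the wrong copy, and the methods name no mapping-quality cutoff, so sharing with the parent is limited by these counts but was not measured.

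More windows recurred at other places in the genome. In the *Rpl10l* peak, 33 of 647 windows in the WT list and 179 of 1299 in the cKO list occurred more than once in the genome, and 256 windows of the gene recurred in the processed pseudogene *Gm14460* on chromosome 2, which had no peak within 1000 bp in either list. At *Rbmxl2*, 62 of 2008 windows of the WT peak and 77 of 2518 of the cKO peak were repeated, and 67 windows recurred within *Lims2* on chromosome 18, where both lists had a peak. Every window of the *Pdha2*, *Cstf2t* and *Cetn1* peaks was unique in both lists. Unique windows also made up the whole *Pgk2* and *Utp14b* peaks in the WT list, and 99.4% and 97.9% of them in the cKO list. Repeated windows thus made up the largest shares in the peaks of *Rpl10l* and *Rbmxl2*, whose heights may be less certain. Whether the summits lie on repeated windows was not examined.

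**Figure D1:**
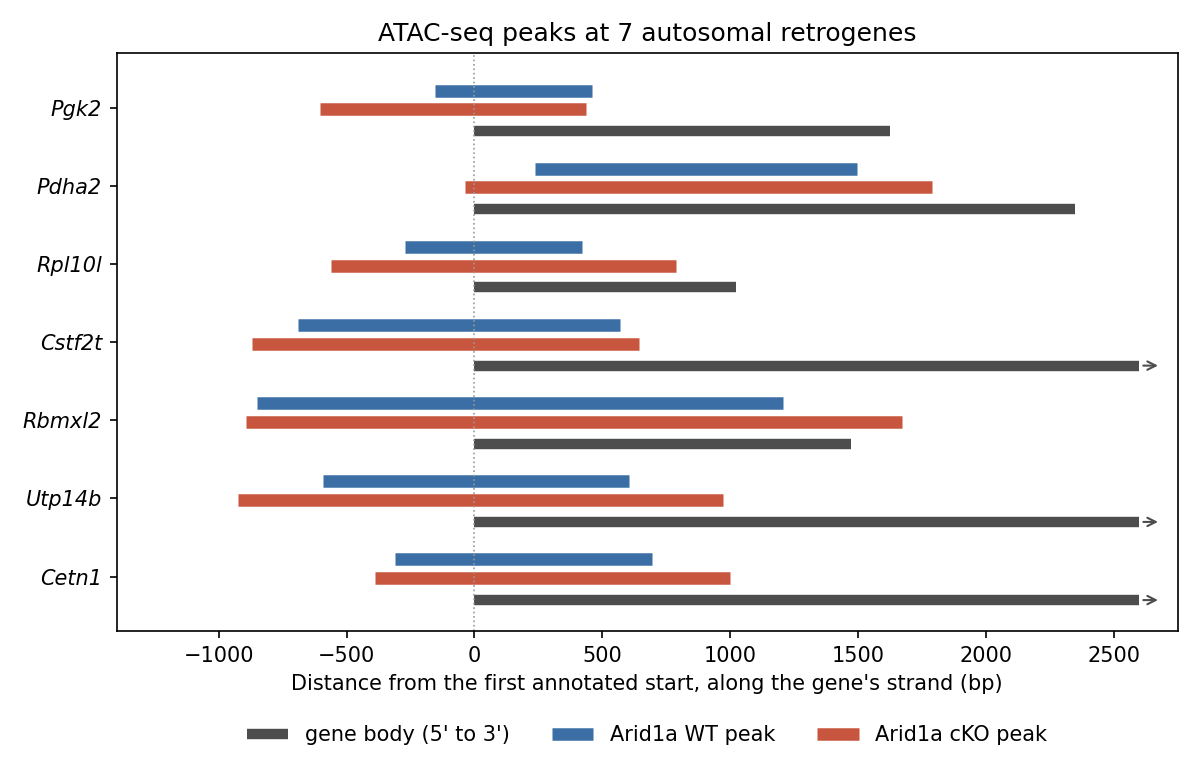
Position of the WT (blue) and cKO (red) peak at each retrogene, in bp from the first annotated start along the strand of the gene, with the gene body in grey (arrows: the body continues past the plot). The Pdha2 peak of the WT list begins 235 bp inside the gene, and at each of the other 6 genes both peaks cross the start.

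All member peaks crossed an annotated start except the WT peak of *Pdha2*, which lay inside the gene. Some also reached far into the gene, and the cKO peak of *Rbmxl2* covered its whole body. A promoter was taken as 1000 bp before to 100 bp after any annotated start, and a peak touched it in 6 of 7 members (WT) and in 7 of 7 (cKO). Among all autosomal protein-coding genes the share was 51.1% and 57.6%. A peak anywhere in the gene window was found at 57.5% (WT) and 65.3% (cKO) of these genes, and among the 1161 single-exon genes, the class of 5 of the members, at 29.7% and 34.9%. The members were picked as genes expressed in testis, so their full count is a description of the list. Genes with exactly 1 overlapping peak in each list made up 31.5% of autosomal genes.

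*Pgk2* encodes the germ-cell form of phosphoglycerate kinase, an enzyme of glycolysis (ENSMUSG00000031233, a single exon at chr17:40207015-40208640, minus strand). Its WT peak at chr17:40208182-40208794 was 613 bp wide with a fold enrichment of 4.88, from 25 fragments at the summit (95% exact Poisson interval 16.2 to 36.9, counting error only). In the cKO list the peak at chr17:40208204-40209244 was 1041 bp wide with a fold enrichment of 9.0, from 54 fragments (40.6 to 70.5). This was the lowest member peak in both lists. The wider interval came from the upstream side, where the peak edge moved from 154 to 604 bp before the start, whereas the edge inside the gene drew back by 22 bp. The share of the promoter window printed above that the peak covered went from 74.0% of the 250 bases to 100%. With its background divided out, the cKO over WT ratio of summit fragments was 1.83 (95% exact interval 1.12 to 3.07).

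*Pdha2* encodes the germ-cell form of the E1 alpha subunit of pyruvate dehydrogenase, which links glycolysis to the citric acid cycle (ENSMUSG00000047674, a single exon at chr3:141210004-141212355, minus strand). It was the exception in position. The WT peak at chr3:141210859-141212120 lay wholly within the exon, from 235 to 1496 bp past the start, and 70.3% of its bases were coding. Its height was 6.57-fold, from 34 fragments (23.5 to 47.5), over 1262 bp. The cKO peak at chr3:141210566-141212392 was 10.1-fold, from 61 fragments (46.7 to 78.4), and 1827 bp wide. It reached 37 bp upstream of the start and counted as a promoter peak. Only the row that ended at chr3:141212392 crossed the start. The other cKO rows ended inside the gene, at chr3:141212259 and chr3:141212263. The centre of the cKO peak stayed 876 bp inside the gene, next to 866 bp in the WT list. Of the 250 bases printed above, the cKO peak covered only the 37 next to the start, which do not reach the TATA box. The WT peak covered none. The ratio of summit fragments was 1.52 (0.984 to 2.39), an interval that holds 1.

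*Rpl10l* encodes a protein of the large ribosomal subunit (ENSMUSG00000060499, a single exon at chr12:66283379-66284401, minus strand). The peak had a fold enrichment of 6.75 in the WT list, from 35 fragments (24.4 to 48.7), and of 10.5 in the cKO list, from 63 (48.4 to 80.6). It spanned 696 bp at chr12:66283979-66284674 and 1348 bp at chr12:66283614-66284961. The width of the joined rows thus differed most among the members, by a factor of 1.94. The deposited summit offset of the WT peak, 839 bp, exceeds these 696 bp, so its reference peak was wider than its rows. The factor, and the growth given next, may therefore be overstated. Growth was similar upstream (287 bp) and downstream (365 bp). The cKO peak covered the whole coding sequence, of which the WT rows covered 59.0%. The ratio of fragments was 1.53 (0.993 to 2.38) and its interval, too, holds 1.

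*Utp14b* encodes a nucleolar factor for the processing of ribosomal RNA (ENSMUSG00000079470, chr1:78658038-78671512, plus strand, up to 4 exons). It had the highest member peak in both lists, 18.2-fold in the WT list from 96 fragments (77.8 to 117) and 26.7-fold in the cKO list from 162 (138 to 189). This peak cannot be assigned to *Utp14b* alone. The gene lies within *Acsl3*, a long-chain acyl-CoA synthetase gene on the same strand, and both peaks also touched a promoter of *Acsl3*. They spanned 1196 bp at chr1:78657447-78658642 and 1901 bp at chr1:78657112-78659012, around the start and clear of the coding sequence, of which they covered 0%. Its ratio of fragments, 1.43 (1.10 to 1.86), was the lowest among the members, and its rank in the list was nearly the same, above 97.3% of WT peaks and 97.2% of cKO peaks.

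*Cstf2t* encodes the germ-cell variant of a cleavage stimulation factor that binds RNA at polyadenylation sites (ENSMUSG00000053536, a single exon at chr19:31082837-31087069, plus strand). It lies within *Prkg1*, a cGMP-dependent protein kinase gene that runs on the opposite strand, but no promoter of another gene was touched by its peaks. The fold enrichment was 12.6 in the WT list, from 66 fragments (51.0 to 84.0), and 23.9 in the cKO list, from 145 (122 to 171). The ratio of 1.86 (1.38 to 2.53) was the highest among the members, next to that of *Pgk2*. In contrast, its width differed least, by a factor of 1.20, from 1262 bp at chr19:31082146-31083407 to 1516 bp at chr19:31081965-31083480.

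*Rbmxl2* encodes a germ-cell RNA-binding protein that acts in splicing (ENSMUSG00000073894, a single exon at chr7:107209445-107210916, plus strand). Its peaks were the widest, 2057 bp at chr7:107208594-107210650 in the WT list and 2567 bp at chr7:107208553-107211119 in the cKO list. Of the coding sequence, the WT peak covered 98.8% and the cKO peak 100%, and of the gene body 81.9% and 100%. The fold enrichment was 9.57 from 50 fragments (37.1 to 65.9) in the WT list and 15.4 from 93 (75.1 to 114) in the cKO list, a ratio of fragments of 1.58 (1.11 to 2.27). Nearly all growth of the joined interval, 469 bp against 41 bp, was on the downstream side. That downstream edge came from a single row, and the other cKO rows ended at chr7:107210683 and chr7:107210939.

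*Cetn1* encodes a centrin, a calcium-binding protein of centrioles and the sperm flagellum base (ENSMUSG00000050996, chr18:9615524-9619478, minus strand, up to 2 exons). The WT peak at chr18:9618785-9619787 was 6.94-fold, from 36 fragments (25.2 to 49.8), and 1003 bp wide. The cKO peak at chr18:9618478-9619866 was 11.6-fold, from 70 fragments (54.6 to 88.4), and 1389 bp wide. Both peaks crossed the start and covered the whole coding sequence, and the ratio of fragments was 1.65 (1.09 to 2.54).

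**Figure D2:**
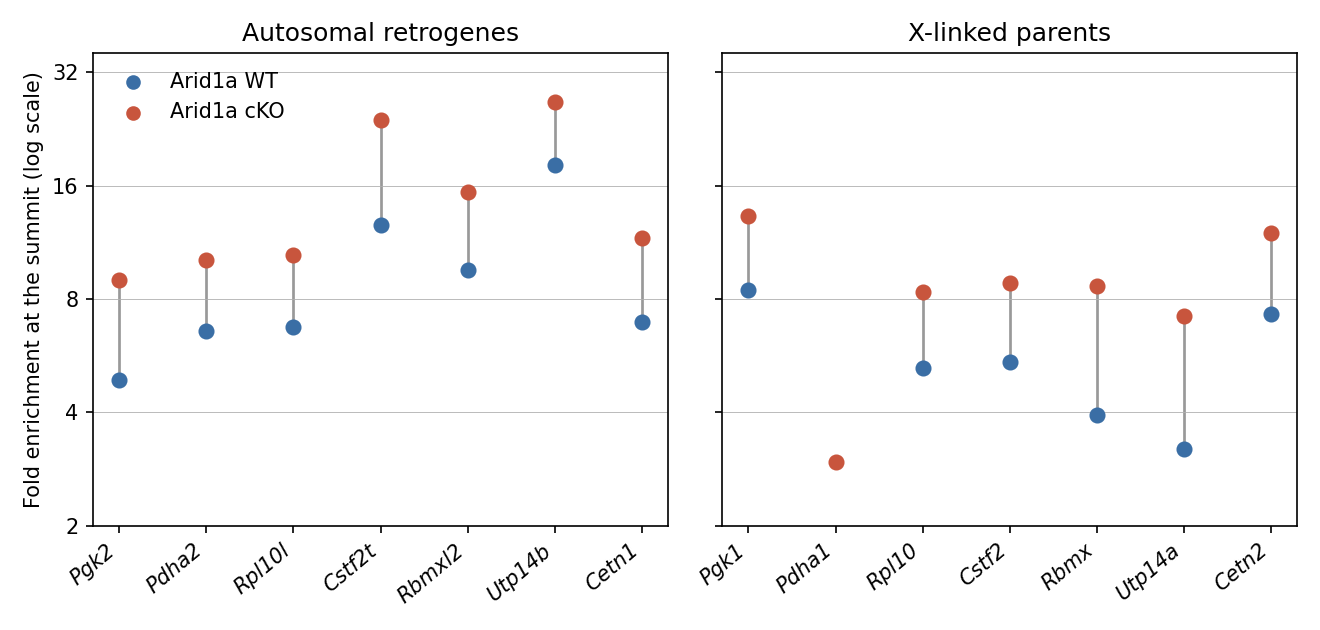
Fold enrichment at the peak summit on a log scale, in the WT (blue) and cKO (red) lists, for the 7 retrogenes (left) and their X-linked parents (right), 1 peak per list and gene. Retrogene peaks lie between 4.88 and 18.2 in the WT list and between 9.0 and 26.7 in the cKO list, and Pdha1 has a cKO peak only.

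The order of the heights was the same in both lists, *Utp14b*, *Cstf2t*, *Rbmxl2*, *Cetn1*, *Rpl10l*, *Pdha2* and *Pgk2* from high to low. The counting intervals of neighbours in that order overlapped, with the exception of *Cstf2t* and *Rbmxl2* in the cKO list. The 3 highest peaks stood at the CpG-rich windows and the lowest at the window with 3 CpGs, a description over 6 RefSeq windows. All 7 members had a higher fold in the cKO list, and so had 96.6% of the 10268 autosomal promoter peaks that pair with a single peak in the other list. All 7 were also wider, as were 95.1% of the pairs. The member ratios of fold enrichment ran from 1.47 at *Utp14b* to 1.90 at *Cstf2t*, and the middle 50% of all pairs from 1.34 to 1.73. Only *Pgk2* and *Cstf2t* lay above that middle range, higher than 86.0% and 89.2% of pairs. Against the 7655 pairs whose WT fold lay in the range of the members, the median was 1.56. The intervals of the fragment ratios held 1 in 2 of the 7 members, and in all 7 they held the median of 1.51 over all pairs. No member was thus set apart from autosomal promoter peaks in general by more than counting error. The width ratio had a median of 1.45 in the members and 1.45 in all pairs.

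**Figure D3:**
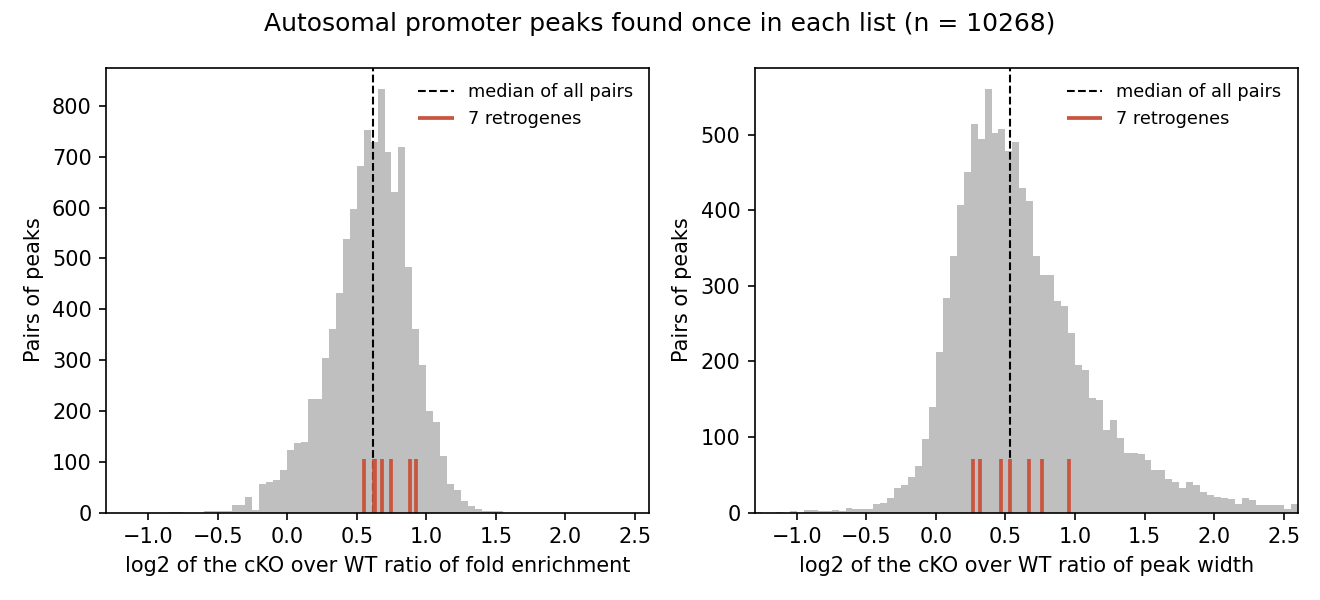
Histograms of the log2 cKO over WT ratio of fold enrichment (left) and of peak width (right) over the 10268 autosomal promoter peaks paired between the lists, with the median dashed and the 7 retrogenes as red ticks. The ticks lie on both sides of the median in each panel, and all lie above 0.

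The rows of the lists show how the other libraries overlapped each peak. Every member peak stood on 3 rows in both lists, as did 90.1% of autosomal promoter pairs, counting 3 or more. The WT rows of *Pgk2* were 434, 570 and 613 bp wide, and its cKO rows 928, 934 and 1041 bp. At *Cetn1* the WT rows were 771, 875 and 988 bp wide, whereas all 3 cKO rows were 1389 bp, so each of these libraries overlapped the full interval. For *Rbmxl2* the gap was narrow, with 1504, 2031 and 2057 bp against 2131, 2146 and 2567 bp. The widest WT row was narrower than the narrowest cKO row in all 7 members, and in 88.8% of the 9255 pairs on 3 or more rows in both lists. A row can only be as wide as its reference peak, so these widths are not independent measurements.

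**Figure D4:**
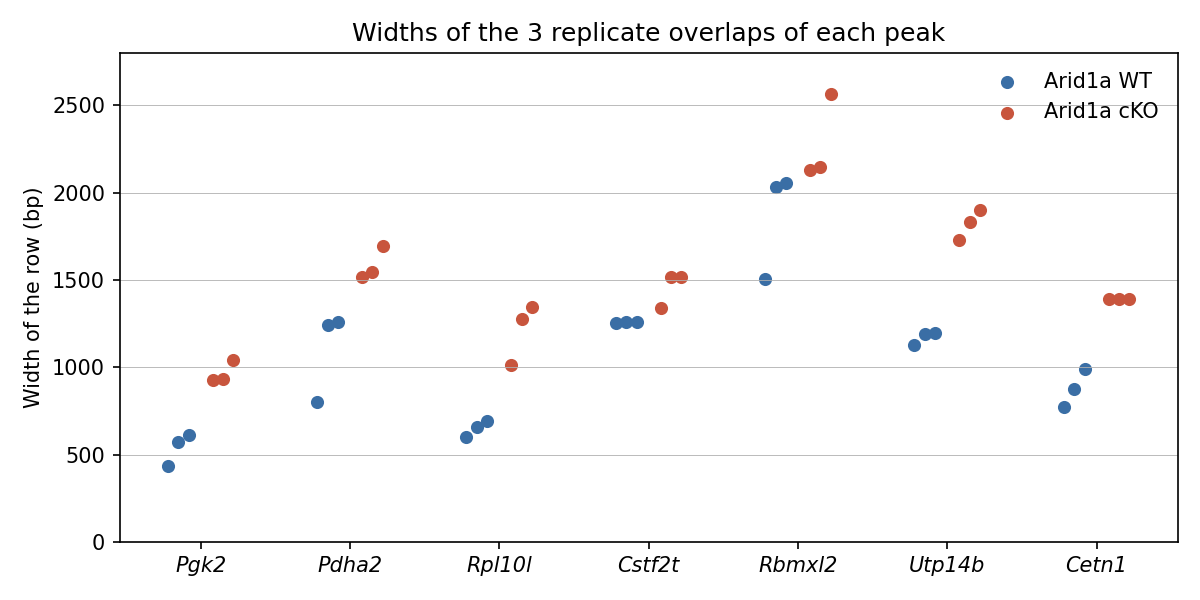
Width in bp of each of the 3 rows of every member peak, ordered by width within the WT (blue) and the cKO (red) list. The 3 cKO rows lie above the 3 WT rows at each of the 7 genes, with the closest approach at Rbmxl2 (2057 and 2131 bp).

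Along the strand, the intervals grew on both sides at 6 of the 7 members. Upstream growth ran from 41 bp at *Rbmxl2* to 450 bp at *Pgk2*, with a median over 6556 genes with 1 peak in each list of 200 bp. Downstream the change ran from a loss of 22 bp at *Pgk2* to a gain of 469 bp at *Rbmxl2*, against a median of 179 bp. These are the outer edges of all rows of a peak, so an edge can rest on a single row, as at *Rbmxl2*.

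Most member peaks stood far from any other. In the WT list the nearest other peak was 343267 bp away for *Pgk2*, 437031 bp for *Pdha2*, 420216 bp for *Cstf2t* and 383818 bp for *Rbmxl2*, and only *Rpl10l* had another peak within 50 kb. In the WT list *Pgk2*, *Pdha2*, *Cstf2t* and *Rbmxl2* thus had single called peaks in long stretches without another. The lists hold only peaks past the threshold, and these distances were not computed over all autosomal promoter peaks. In the cKO list, *Rbmxl2* had 4 other peaks within 50 kb, none of them with a WT partner, *Rpl10l* had 2, of which 1 lacked a partner, and *Utp14b* had 1, which lacked one. A cKO peak without a WT partner thus lay within 50 kb at 3 of 7 members, against 63.1% of 10943 common autosomal promoter peaks of that list. The 2 nearest to *Rbmxl2* were upstream, at chr7:107206578-107206872 and chr7:107207584-107207657, each with a fold of 3.11 on 1 row, so only 1 other library shared them. They began outside the 1000 bp window and are not counted above. In the windows of all autosomal genes a gained peak was found at 25.1% and a lost peak at 2.42%, next to 0 of 7 members for both. Those windows hold gene bodies of any length, and longer ones have more room for a peak. No such share was computed for single-exon genes or for genes as short as the members.

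The X-linked parents serve as the counterpart. In the WT list 6 of 7 parents had a promoter peak, against 26.6% of all X-linked protein-coding genes, and in the cKO list 7 of 7, against 47.2%. The parent without a WT peak was *Pdha1*, whose nearest WT peak was 363462 bp away, and whose cKO peak was the weakest here, with a fold of 2.95 over 542 bp on 2 rows. In contrast, its retrogene *Pdha2* had a peak on 3 rows in both lists. The retrogene was the higher of the pair in the WT list for *Rpl10l* (6.75 against 5.25), *Cstf2t* (12.6 against 5.44) and *Rbmxl2* (9.57 against 3.94). The same held for *Utp14b* (18.2 against 3.19), whose peak also touches a promoter of *Acsl3*. The retrogene was the lower one for *Pgk2* (4.88 against 8.44 at *Pgk1*) and *Cetn1* (6.94 against 7.32 at *Cetn2*, whose peak also touches a promoter of another gene). The same directions held in the cKO list, where *Rbmxl2* was 15.4 and *Rbmx* 8.67, and *Utp14b* 26.7 and *Utp14a* 7.20. In both lists the counting intervals of retrogene and parent overlapped for *Pgk2*, *Rpl10l* and *Cetn1*. They were apart for *Cstf2t*, *Rbmxl2* and *Utp14b*. Spermatocytes carry 1 X chromosome and a pair of each autosome, and this difference in copy number was not corrected for. The cKO over WT ratio of the 6 parents with 1 peak in each list had a median of 1.63, from 1.57 at *Pgk1* to 2.26 at *Utp14a*, next to 1.61 in the retrogenes and 1.57 over 268 X-linked promoter pairs.

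A further list of 10 autosomal copies of X-linked genes was read in the same way. A peak was found at 6 of 10 genes in WT and at 8 of 10 in cKO, near the 57.5% and 65.3% of all autosomal genes. The 6 were *Rbmxl1*, *Gk2*, *Tktl2*, *Rpl39l*, *Rpl36al* and *Rps4l*, each with a promoter peak on 3 rows in both lists. Among them *Gk2*, a germ-cell glycerol kinase, was 7.50-fold in WT and 15.4-fold in cKO, a ratio of 2.05 that was higher than 95.2% of autosomal promoter pairs. It was the highest of the 4 genes with 1 peak in each list, and the ratios of *Rbmxl1* (1.45), *Tktl2* (1.51) and *Rpl36al* (1.59) lay near the middle of all pairs. The median of the 4 was 1.55, next to 1.54 over all pairs. It leaves out *Rpl39l*, with 2 WT peaks, and *Rps4l*, with 2 cKO peaks. The promoter peak of *Rpl39l* changed little in height, from 7.88-fold in WT to 8.18-fold in cKO. It was narrower in cKO, at 1157 bp against 1395 bp. That of *Rps4l* was higher and wider in cKO, at 2226 bp against 1100 bp. The peaks of *Rbmxl1* and *Rpl36al* also touch a promoter of another gene in both lists, so they cannot be assigned to these copies alone. *Prps1l1*, which encodes a phosphoribosyl pyrophosphate synthetase, and *Fam50b* had peaks in the cKO list only, 3.60-fold over 1429 bp at the promoter of *Prps1l1* and 5.56-fold over 1271 bp at that of *Fam50b*, each on 3 rows. *Fam50b* had another gained peak 11544 bp past its start. The other 2 genes had no peak in either list.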

How the data were processed

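Chromatin accessibility was measured by ATAC-seq in pachytene spermatocytes, in 4 *Arid1a* WT and 4 *Arid1a* cKO libraries. As stated in the labels and the methods, the authors followed Omni-ATAC, trimmed reads with Trim Galore, aligned 50-base read pairs to mm10 with bowtie2, removed PCR duplicates with Picard and mitochondrial reads, kept proper pairs, called peaks per library with MACS2 at a q of 0.05 with no local background, filtered blacklisted regions and intersected replicates. A mapping-quality cutoff was not named. Fold enrichment was deposited as a linear ratio, with −log10 p and −log10 q values of the authors that score it by a Poisson model. Another deposited column, the summit offset, gave no positions because it counts from a start that the rows need not keep. It was only set beside the width of the *Rpl10l* peak.

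All rows of 1 peak name were joined into a single interval. Genes and starts were those of GENCODE vM21 (GRCm38, the assembly of mm10). All peaks ended within their chromosomes. A WT and a cKO peak sharing at least 1 bp were common, and otherwise lost or gained. The summit fragment count was recovered from the grid of fold values, all of which lay within 0.02 of a whole number. Intervals of counts are exact Poisson, and those of ratios exact conditional intervals after division by background. Both cover counting error only. Uniqueness was the number of exact matches of each 50-base window on both strands of chromosomes 1 to 19, X and Y. The longest annotated coding sequences were aligned with Biopython 1.88. Python 3.11.15, pandas 2.3.3, NumPy 2.4.6 and SciPy 1.17.1 were used, and the overlap and interval steps were tested on simulated data.

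Each genotype gives 1 pooled list, so no test between genotypes was run. The genes named are the 7 members, their parents, genes whose start or body lies in a member window, members of the wider list with a peak and, chosen after their values were seen, the place holding most repeated windows of *Rpl10l* and of *Rbmxl2*. The members and lists were chosen with earlier results of these data known. The protein sequences, per-library peaks and signal tracks were not used here. No column of other samples was present.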

Additional observations from a re-analysis of the deposited data

How the results depend on the processing

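The counts of members with a peak (7 and 7), of peaks (7 and 7), of common (7), gained (0) and lost (0) peaks and of promoter peaks (6 and 7) were recomputed under the alternatives, giving 83 values, 80 of them planned. The other 3, and 3 values of the median fold ratio, were chosen after seeing the data. Of the 86 values, 79 stayed within 1.5 times the reported count or, for the median ratio, within the range of the member ratios. That range is wide, and a median over fewer of the members cannot leave it. With 5000 bp on either side, 2 gained peaks appeared, both at *Rbmxl2*. With −log10 q of at least 10 in both lists, *Pgk2* (9.29 in the WT list) dropped out and 1 peak counted as gained, by construction, and against the other list in full there were 0. Counting each row by itself gave 21 WT peaks, 21 cKO peaks and 21 common peaks, since each peak has 3 rows. With the peak centre required to lie in the promoter, 3 members passed in the WT list (*Rpl10l*, *Cstf2t* and *Utp14b*) and 3 in the cKO list (*Pgk2*, *Cstf2t* and *Utp14b*). The median cKO over WT ratio was 1.58 as fragments over background, 1.86 as fragments alone and 1.64 without *Utp14b*, whose peak touches another promoter.

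No paired analysis was possible because each genotype has 1 pooled list, with no value per library. For the same reason leaving out each library in turn was not run. Heights rest on 1 unnamed library per genotype with 4.33 and 5.11 background fragments, and at 34 or 35 WT fragments the interval of the ratio held 1. The lists hold only peaks past the threshold.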
